A study of Mus musculus with 5 samples.

Results

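A microRNA (miRNA) is cut from a short RNA hairpin as a duplex of 2 strands, and the older naming of miRNAs marks the strand thought to be discarded, the passenger, with a star. The 100 star strands described here are those of the array rows whose names begin with mmu-miR- and end in a star, without miR-7a*, miR-9* and the stars of 3 miR-29 hairpins (a, b and c) and 3 miR-30 hairpins (a, b and e). They make up 100 of 569 mouse miRNA probes, and 15 other star rows of the array, 7 of them let-7 stars, are left out. The guide of each star is the row of the same name without the star, and 90 of the 100 stars have one. The 10 stars without such a row are miR-24-1*, miR-24-2*, miR-30c-1*, miR-30c-2*, miR-125b*, miR-181a-1*, miR-181a-2*, miR-199b*, miR-218-1* and miR-218-2*.

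The RNA came from hippocampi of mice aged 8 weeks on the 129/Sv background, all carrying a human BDNF knock-in and homozygous for either the methionine form (Met/Met, labelled with Cy3) or the valine form (Val/Val, labelled with Cy5) of the Val66Met variant. BDNF is a secreted growth factor for neurons. On each of 5 two-colour arrays, the labels' biological replicates 1 to 5, small RNA of 1 Met/Met mouse met that of 1 Val/Val mouse, and the dyes kept the same genotype throughout, so an effect of dye cannot be told apart from one of genotype. The deposited columns are called Test and Cntrl and name neither a dye nor a genotype. All ratios below are log2 of Test over Cntrl, and which genotype a positive ratio favours is not settled.

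When the duplex is opened, an Argonaute protein keeps 1 strand as the guide, which pairs through bases 2 to 8 of its 5′ end (the seed) with target mRNAs, and the other strand is usually degraded. Thermodynamic stability of the duplex ends and the identity of the first base are known to bear on which strand is kept. Because both strands come from 1 precursor, their amounts share the precursor's transcription and processing but differ in stability after the choice of strand. Some stars are loaded and active in their own right, and for several hairpins the strand that is named star is the more abundant in some tissues.

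The sequences on which the results turn are the array targets of hairpins whose star and guide ratios differed, and of the stars with the most extreme mean ratios, the highest signal or the widest range over arrays. Each is written 5′ to 3′ with the seed in capitals, and each is identical to a mature miRNA of RefSeq on build GRCm38.p6. The 5 hairpins that differed and have a matching strand come first, star before guide.
miR-148a*: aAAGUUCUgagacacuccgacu
miR-148a: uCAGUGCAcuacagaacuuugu
miR-22*: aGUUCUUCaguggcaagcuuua
miR-22: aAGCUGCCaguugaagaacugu
miR-146b*: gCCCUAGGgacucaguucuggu
miR-146b: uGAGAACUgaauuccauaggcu
miR-138*: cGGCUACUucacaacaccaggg
miR-138: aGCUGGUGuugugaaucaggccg
miR-140*: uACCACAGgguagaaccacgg
miR-34c*: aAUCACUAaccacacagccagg
miR-411*: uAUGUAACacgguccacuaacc
miR-382*: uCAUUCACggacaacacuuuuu
miR-376b*: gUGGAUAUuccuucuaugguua
miR-376c*: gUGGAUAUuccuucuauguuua

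MiR-148a* lies at chr6:51269867-51269888 on the minus strand and its guide at chr6:51269829-51269850. MiR-22* lies at chr11:75463734-75463755 on the plus strand, with its guide at chr11:75463772-75463793. MiR-146b* lies at chr19:46342828-46342849 on the plus strand and its guide at chr19:46342790-46342811. MiR-138* lies at chr9:122682936-122682957 on the plus strand, outside the span of any other gene of the table used, whereas its guide sequence occurs at 2 loci, on chromosomes 8 and 9. MiR-140* lies at chr8:107551288-107551308 within the span of Wwp2, a ubiquitin ligase gene, and miR-34c* at chr9:51103044-51103065 within the spans of Hoatz and Btg4, where spans were compared without regard to strand. MiR-411* lies at chr12:109710225-109710246 and miR-382* at chr12:109733819-109733840. MiR-376b* at chr12:109723471-109723492 and miR-376c* at chr12:109722733-109722754 share their seed, and their targets differ by an edit distance of at most 2, so their signals may not be separate.

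Of the 100 stars 87 were identical to a RefSeq mature miRNA, and so were 75 of the 90 guides. In the 73 hairpins with both strands placed, star and guide lay on opposite arms in all 73, and no star shared its guide's seed. The first base was U in 21% of stars and in 47.8% of guides, and it was C in 31% of stars and 12.2% of guides. In 35 hairpins the guide alone began with U, in 13 the star alone did, and in 8 both did. Median length was 22 bases for both kinds of strand, and the median share of G and C was 50% in stars and 45.5% in guides. Seeds were shared among stars of 7 groups, namely miR-17* with miR-20b*, miR-24-1* with miR-24-2*, miR-30c-1* with miR-30c-2*, miR-200a* with miR-200b*, miR-302b* with miR-302c*, miR-376b* with miR-376c*, and the 3 stars miR-467a*, miR-467b* and miR-467e*. Targets that differ from another target of the array by an edit distance of at most 2 were those of 8 stars and of 24 guides, among them miR-146b (near miR-146a) and miR-148a (near miR-148b). In 5 of the 73 hairpins the guide sequence had more loci than the star: miR-16, miR-92a, miR-135a, miR-138 and miR-196a.

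Brightness and agreement of the arrays frame every value below. Signal is linear spot intensity in the scanner's units, 6 spots per miRNA on each array. Empty spots had medians of 31.4 to 45.7 in the Test columns and 207.9 to 361 in the Cntrl columns, and the 95th percentile of the mismatch control spots, whose probes carry wrong bases and read unspecific binding, was 77.8 to 209 in Test and at most 464 in Cntrl. Across 568 miRNAs the ratios of replicates 3 and 5 correlated at r = −0.56 and those of replicates 1 and 3 at −0.30, while the other pairs of arrays had r from 0.17 to 0.63. Over the 100 stars, replicates 3 and 5 had r = −0.60 and replicates 2 and 5 had −0.15. Replicate 3 there had r = 0.04, 0.43 and 0.23 with replicates 1, 2 and 4. Whether replicate 3 or replicate 5 runs against the others is therefore not settled. Results are also given without each array in turn and with the sign of replicate 3 turned, while replicate 5 was not turned. The brain miRNAs miR-9, miR-124, miR-128, miR-132, miR-138 and miR-218 were above the mismatch spots in both columns on all 5 arrays. Of miRNAs known from other tissues, miR-208a of heart and miR-144 of red blood cells were above them on no array, liver miR-122 and muscle miR-206 on 3 arrays in each column, and muscle miR-1 on 4 in each. The choroid plexus miRNA miR-204 and the red blood cell miRNA miR-451 were above them on all 5 arrays, at mean ratios of 0.29 ± 0.49 and 0.42 ± 0.65 (SD, n = 5). Immune miR-150, endothelial miR-126-3p and oligodendrocyte miR-338-3p were also above them on all 5 arrays in both columns. Choroid plexus miR-211 and immune miR-142-3p were on no array. Immune miR-223 was on 2 arrays in Test alone, and oligodendrocyte miR-219 on 1 in Cntrl alone.

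A smaller share of stars than of guides had signal above unspecific binding. A strand counts as above the mismatch spots where its signal in Test, in Cntrl or in both exceeded their 95th percentile on 3 or more arrays, and 43 of 100 stars (43%) did so, against 58 of 90 guides (64.4%) and 318 of all 569 miRNAs (55.9%). In both columns on all 5 arrays, 23 stars and 55 guides did. Of the 90 hairpins, 32 had both strands above, 26 the guide only, 26 neither, and 6 the star only. Those 6 were miR-135a*, miR-136*, miR-140*, miR-299*, miR-467a* and miR-467b*. Brightness depends on the probe as well as on the RNA, so star and guide are read against control spots and not against each other. All 100 stars passed the looser filter for testing, which asks the same against the empty spots.

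**Figure D1:**
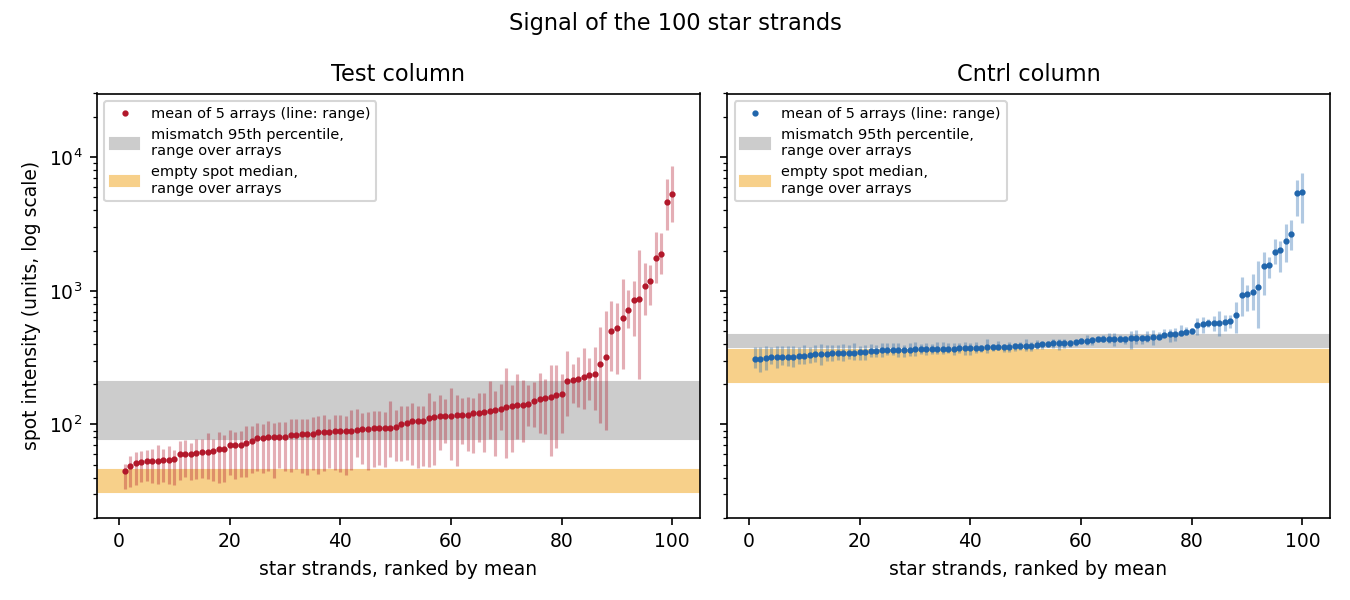
Spot intensity (log scale) of the 100 star strands in the Test column (left) and the Cntrl column (right), ranked by the mean of 5 arrays; points are means, lines the range over arrays, the grey band the range of the mismatch 95th percentile and the orange band that of the empty-spot median. Most stars lie within or below the grey band, and a tail led by miR-376b* and miR-411* rises to 5330 in Test and 5492 in Cntrl.

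Among these 6, miR-140* and miR-299* were above the mismatch spots in both columns on all 5 arrays. MiR-140*, known from cartilage, read 1181, 1156, 783, 712.1 and 457 in Test on replicates 1 to 5 and 1800, 1717, 1481, 1248 and 1550 in Cntrl. The guide miR-140 read 158, 142.7, 102, 88.4 and 69.5 in Test and 391, 375.5, 383.1, 390 and 447 in Cntrl. The star exceeded the mismatch spots in both columns on every array, and the guide on no array in Test and on 1 in Cntrl. In the imprinted Dlk1-Dio3 region on chromosome 12, miR-299* averaged 529 ± 256 in Test and 983 ± 247 in Cntrl (SD, n = 5), and was above them on all 5 arrays, while miR-299 was on none. MiR-136* passed on 3 arrays in Test and 4 in Cntrl, and its guide on none.

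No star passed the test of Test against Cntrl after correction over all miRNAs. The count was 0 of 100 stars and 0 of 568 miRNAs (0% called) at an adjusted p of 0.05 in limma (Benjamini-Hochberg), with a smallest adjusted p of 0.058. In RNA of whole tissue, fewer cells of a type and less RNA per cell cannot be told apart. Unadjusted p lay below 0.05 for 20 stars (20%), 9 with a positive and 11 with a negative mean, against 110 of 568 miRNAs (19.4%) and 22 of 90 guides (24.4%). The stars' share is thus near that of all miRNAs. The stars' mean ratios were positive for 50 and negative for 50, with a median of 0.00016 against −0.0047 for guides and 0.0029 for all miRNAs. The normalization, a loess fit on the miRNA spots of each array, centres ratios on 0. The even split and the medians near 0 are therefore largely set by that step. Mean ratios of the stars ran from −0.33 for miR-34c* to 0.25 for miR-376c*, so no mean lay beyond 0.5 in either direction. The sign was the same on all 5 arrays for 19 stars (19%), against 23.3% of guides and 19.7% of all miRNAs.

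The spread between arrays followed brightness. Its median was an SD of 0.13 on the log2 scale for the 43 stars above the mismatch spots and 0.063 for the 57 others. Over all stars it was 0.079, against 0.16 for guides and 0.12 for all miRNAs. The offset of 50 added before the logarithm pulls the ratios of dim probes towards 0, so a small ratio of a dim star is not a measure of equal amounts.

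The star with the smallest p was miR-712*, from a hairpin that in mouse is known from endothelium under disturbed flow and lies in the spacer of a ribosomal RNA precursor. Its log2 ratios were −0.20, −0.21, −0.18, −0.29 and −0.33, all negative, with a mean of −0.24 ± 0.07 (SD, n = 5), a 1.18-fold lower signal in Test (limma adjusted p = 0.058). Its signal was low, at 113 ± 45 in Test and 446 ± 30 in Cntrl, and exceeded the mismatch spots on 2 arrays in Test and 5 in Cntrl. The value depended on the background step, at −0.52 with blank subtraction (adjusted p = 0.322), and was −0.17 with replicate 3 turned (adjusted p = 0.316). Next in order were miR-302b*, from an embryonic stem cell cluster, at −0.12 ± 0.03, miR-140* at −0.24 ± 0.13 (0.01 with median centring) and miR-483*, whose hairpin lies in the growth factor gene Igf2, at 0.12 ± 0.04. Their adjusted p in limma lay between 0.135 and 0.152. MiR-127*, miR-374*, miR-193*, miR-485*, miR-200b* and miR-463* followed, with means between −0.16 and 0.13 and an adjusted p of 0.152 to 0.215.

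The ratios of star and guide were then compared within arrays, which asks whether the 2 strands of 1 hairpin differ in their Test over Cntrl ratio. At an adjusted p of 0.05 in limma, 7 of the 90 hairpins differed, and 8 of all 104 star and guide pairs on the array did (7.69% called). The star's ratio was the higher in miR-22, miR-138 and miR-378, and the lower in miR-140, miR-146b, miR-148a and miR-712, each with an adjusted p of 0.044. In 4 of the 7 both strands were above the mismatch spots. Unadjusted p lay below 0.05 for 19 of the 90, against 23 of all 104 pairs (22.1%). The differences were positive in 49 hairpins and negative in 41, with a median of 0.018 against 0.041 for all 104 pairs. Loess centres the ratios of both strands on 0, so a median difference near 0 is largely set by that step.

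The number of calls moved with replicate 3 and with the processing. Without replicate 3, 21 hairpins passed, among them all 7, and with the sign of replicate 3 turned none did, the smallest adjusted p being 0.059. Without replicate 1, 2 or 4 the count was 0. Without replicate 5 it was 6, of which 3 (miR-138, miR-148a and miR-378) were among the 7. The 7 differences kept their signs without replicate 3 and with it turned, at sizes of 0.25 to 0.47 and of 0.18 to 0.35. Median centring in place of loess turned miR-378 to −0.03 and miR-140 to 0.01, and left miR-146b, miR-148a and miR-712 of the 7 past the threshold.

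**Figure D2:**
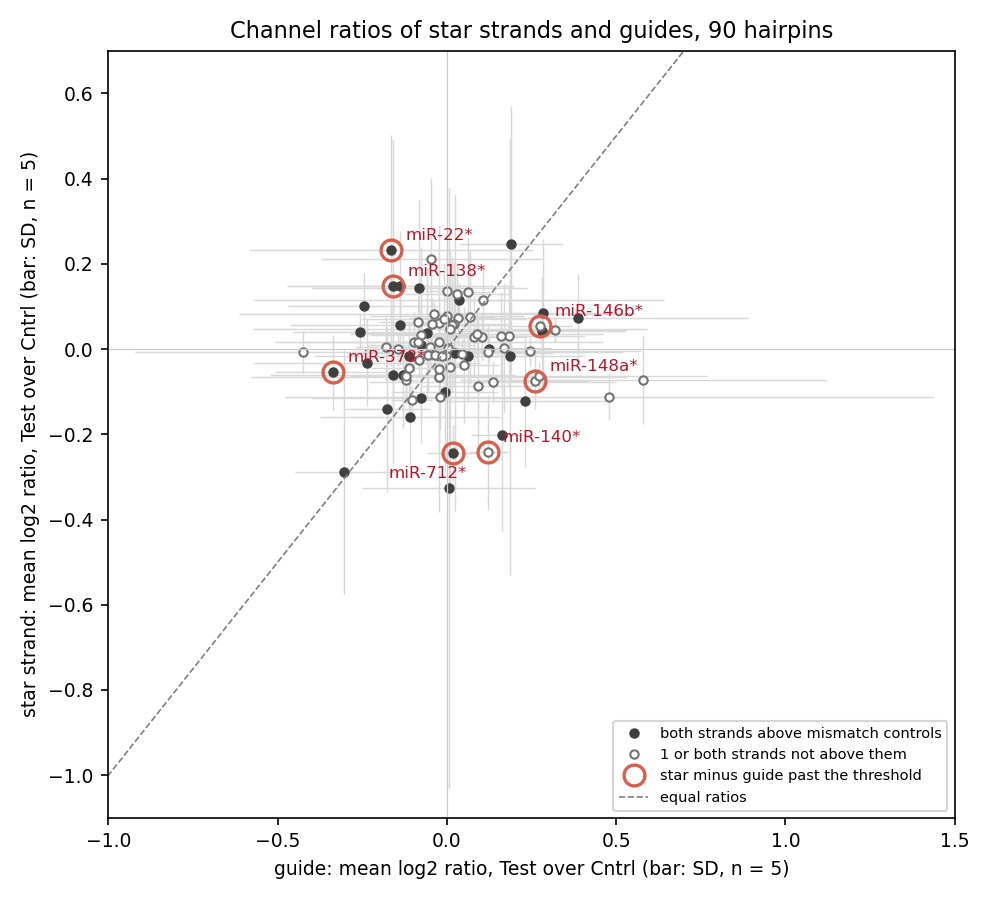
Mean log2 ratio (Test over Cntrl) of the star strand (vertical axis) against that of its guide (horizontal axis) for 90 hairpins, with bars for the SD over 5 arrays; filled points have both strands above the mismatch spots and rings mark the 7 hairpins whose difference passed the threshold. The points form a cloud around 0 with no slope along the dashed line of equal ratios (r = 0.0033 over 90 hairpins).

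MiR-22, a widely expressed miRNA studied in heart and immune cells, showed the largest difference among the 7. The ratios of miR-22* were 0.13, 0.33, 0.56, 0.30 and −0.17 on replicates 1 to 5, and those of miR-22 were −0.38, −0.19, 0.45, −0.03 and −0.68. The star stood above the guide on every array although both moved widely from array to array, highest on replicate 3 and lowest on replicate 5. The difference was 0.40 ± 0.18 (SD, n = 5; 95% interval 0.21 to 0.58). Signal of the star was 629 ± 394 in Test and 926 ± 242 in Cntrl, and both strands were above the mismatch spots on all 5 arrays. With median centring the difference was 0.13 (limma adjusted p = 0.520).

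MiR-138, a brain miRNA that limits the size of dendritic spines in rat neurons, ran the same way. MiR-138* had ratios of 0.18, −0.13, −0.21, 0.23 and 0.66, and miR-138 had −0.01, −0.39, −0.43, −0.09 and 0.12. Replicates 2 and 3 were the lowest and replicate 5 the highest for both strands, so that the ranges of the strands overlapped while the star led within each array. The difference was 0.31 ± 0.14 (95% interval 0.15 to 0.46). The star read 2416, 2694, 1343, 1389 and 1526 in Test and 2506, 3172, 2467, 1634 and 2055 in Cntrl, among the brightest stars. The guide sums 2 loci and the star reports 1, and the difference with median centring was 0.09 (limma adjusted p = 0.423).

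MiR-378, studied in mouse for its part in mitochondrial metabolism, was the third with a higher star ratio. The star was at −0.09, −0.16, −0.07, −0.02 and 0.08 and the guide at −0.31, −0.60, −0.34, −0.32 and −0.12. The guide was negative on every array and lowest on replicate 2, whereas the star stayed near 0. The difference was 0.28 ± 0.10 (95% interval 0.15 to 0.41). The star was close to unspecific binding, with 118 ± 37 in Test and 432.1 ± 22 in Cntrl, above the mismatch spots on 2 arrays in Test and 4 in Cntrl.

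MiR-712* and miR-140* had lower ratios than their guides, and their strands did not overlap over the arrays. Strands that did not overlap were found in 7 of all 104 pairs (6.73%), all of them among the 90 hairpins: miR-27b, miR-130b, miR-140, miR-146b, miR-148a, miR-455 and miR-712. MiR-712 was at 0.02 ± 0.07 while the star lay at −0.24, a difference of −0.26 ± 0.11 (95% interval −0.39 to −0.13). That difference was −0.58 with blank subtraction and −0.54 in the authors' deposited value table, where it did not pass (limma adjusted p = 0.201 and 0.141). For miR-140 the star ratios were −0.26, −0.29, −0.07, −0.17 and −0.43, against 0.07, 0.18, 0.05, 0.14 and 0.16 for the guide, a difference of −0.36 ± 0.18. The star was negative and the guide positive on all 5 arrays, but the guide had no signal above the mismatch spots in Test. The ratio of a guide at background is no measure of that strand. With median centring the star was at 0.014 and the guide at 0.0033.

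For miR-148a and miR-146b the difference came with a guide that had signal and a star that had none above the mismatch spots on any array. MiR-148a, which represses a DNA methyltransferase, had ratios of 0.24, 0.53, 0.22, 0.14 and 0.17, and the star had −0.12, 0.02, −0.12, −0.12 and −0.03. The guide was positive throughout and highest on replicate 2. The star read 79.4 ± 23.8 in Test and 375 ± 29 in Cntrl and the difference was −0.34 ± 0.12 (95% interval −0.48 to −0.20). With median centring it was −0.84 (limma adjusted p = 0.0046). MiR-146b, which damps innate immune signalling through Traf6 and Irak1, had a difference of −0.22 ± 0.07 with a star at 0.05 ± 0.04 and a guide at 0.27 ± 0.10. It was −0.0006 with blank subtraction and −0.73 with median centring. A ratio near 0 of a star at background is no measure of that strand.

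**Figure D3:**
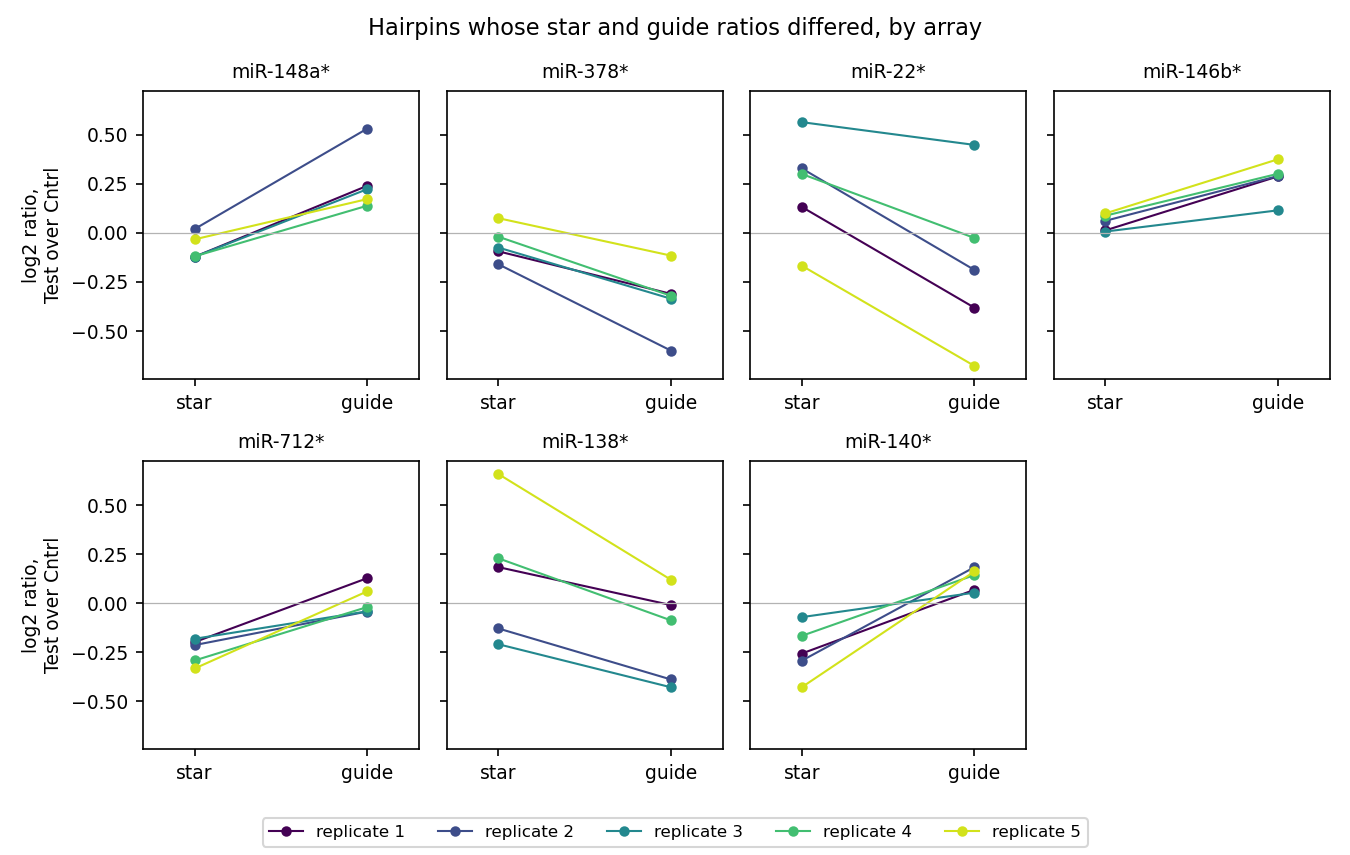
Log2 ratio (Test over Cntrl) of the star strand (left in each panel) and its guide (right) in the 7 hairpins whose ratios differed; each line joins the 2 strands on 1 array, coloured by replicate. The lines of a panel all slope the same way, while the height of the lines differs between arrays, most in miR-22* and miR-138*.

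Further hairpins came close to the threshold or showed large differences with a large spread. MiR-877, cut from a spliced intron of Abcf1, had its star at 0.10 ± 0.08 and its guide at −0.25 ± 0.22, a difference of 0.35 ± 0.18 with a limma adjusted p of 0.0505. The difference was 0.13 with replicate 3 turned. MiR-130b (0.15 ± 0.03) and the smooth muscle miRNA miR-145 (0.26 ± 0.15) had an adjusted p of 0.075 each in limma, and the star of neither was above the mismatch spots. MiR-150, a lymphocyte miRNA, had the same adjusted p at −0.20 ± 0.10, negative on all 5 arrays, with both strands above the mismatch spots. The largest negative difference, −0.65 ± 0.61, was that of miR-15b, whose guide averaged 0.58 ± 0.54 while the dim star stood at −0.07 ± 0.10 (limma adjusted p = 0.164). It passed without replicate 3, at −0.88 (adjusted p = 0.039).

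Across hairpins, the ratios of star and guide showed little correlation. Across the 90 hairpins, the mean ratio of star and guide correlated at r = 0.0033, and at 0.093 over the 32 with both strands above the mismatch spots. Within single arrays r lay between 0.017 and 0.18. All these points share the 5 arrays and their normalization, and hairpins are not independent replicates. Only 32 of the 90 hairpins had both strands above the mismatch spots, so a low r over all 90 does not show that the strands vary separately. Over those 32 r was low as well, but they share the 5 arrays, so it does not show this either. Correlation over the arrays within a hairpin was not computed. There the strands of miR-22 and of miR-138 moved alike, and those of miR-411 did not. The strands had means of opposite sign in 44 hairpins and of the same sign in 46. Among the 32 with both strands above the mismatch spots these counts were 17 and 15. Across hairpins, the difference correlated with the gap in brightness between the strands at r = 0.041 after loess and at r = −0.84 with median centring. Loess takes out the trend of the ratio with brightness on these same miRNA spots. The r near 0 after it is therefore largely set by that step and is no test of it.

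Where 1 guide is made from 2 hairpins, the stars differ and report the hairpins one by one. For 4 such guides the array holds both numbered stars, while the guide has a single unnumbered row that reports both hairpins and was not paired with either star. The stars of 3 of them are printed to show where the hairpins differ.
miR-24-1*: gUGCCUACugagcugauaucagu
miR-24-2*: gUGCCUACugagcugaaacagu
miR-30c-1*: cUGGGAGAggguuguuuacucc
miR-30c-2*: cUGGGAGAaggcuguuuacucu
miR-218-1*: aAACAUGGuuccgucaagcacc
miR-218-2*: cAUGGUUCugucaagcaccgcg

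MiR-24-1* (chr13:63301213-63301235, within the span of Aopep) and miR-24-2* (chr8:84208839-84208860) share a seed and may share signal. Their ratios were −0.03 ± 0.05 and 0.03 ± 0.10, and the second was above the mismatch spots in both columns on all 5 arrays. MiR-30c-1* (chr4:120769546-120769567, within Nfyc) and miR-30c-2* (chr1:23291754-23291775) also share a seed. MiR-30c-2* was at −0.04, −0.38, −0.23, −0.11 and 0.31, positive on replicate 5 alone, and miR-30c-1* was at −0.02, −0.12, −0.04, 0.01 and 0.22, in much the same order over the arrays. MiR-218-1* (chr5:48224005-48224026) and miR-218-2* (chr11:35616882-35616903) lie within Slit2 and Slit3, which encode axon guidance ligands, and their seeds differ. Their ratios were −0.03 ± 0.07 and 0.05 ± 0.03, and neither was above the mismatch spots whereas miR-218 was above them on all 5 arrays. MiR-181a-1* was at −0.02 ± 0.06 and the dim miR-181a-2* at −0.08 ± 0.05. None of these 8 stars passed over all miRNAs, the smallest limma adjusted p being 0.233.

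The 8 brightest stars lay furthest above the control spots. MiR-376b*, of an imprinted cluster whose transcripts are edited in brain, read 7588, 8562, 3938, 3311 and 3249 in Test and 6506, 6789, 4908, 3631 and 5243 in Cntrl. Its ratio was positive on all 5 arrays, at 0.28, 0.30, 0.05, 0.05 and 0.06, with replicates 1 and 2 well above the rest. The mean of 0.15 ± 0.13 did not pass (limma adjusted p = 0.222), and the guide was at −0.14 ± 0.33. MiR-411* of the same region averaged 4626 ± 1907 in Test and 5492 ± 1670.4 in Cntrl. Its ratios were 0.05, −0.19, −0.50, 0.10 and 0.51, lowest on replicate 3 and highest on replicate 5, and they averaged −0.01 ± 0.37. The guide miR-411 ran the other way on these arrays, at 0.44 on replicate 3 and −0.35 on replicate 5.

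MiR-485*, of a hairpin tied to dendritic spine number in rat neurons, was at −0.16 ± 0.11, negative on 4 of 5 arrays (limma adjusted p = 0.194), and its guide at −0.11 ± 0.27. MiR-330* was at −0.20 ± 0.22 while its guide, near the mismatch spots, was at 0.16 ± 0.09. The difference of −0.37 ± 0.27 had an adjusted p of 0.106 in limma, and passed without replicate 5, at −0.48 (adjusted p = 0.019). MiR-674* and miR-674 had almost equal means, −0.29 ± 0.29 and −0.30 ± 0.15. The star was at −0.48, −0.40, 0.21, −0.31 and −0.46, so replicate 3 alone was positive. With median centring the mean ratios of miR-485*, miR-330* and miR-674* were positive, at 0.20, 0.10 and 0.01. Without replicate 3 the mean of miR-674* was −0.41 (limma adjusted p = 0.042). It was the sole star to pass in that setting, where 5 of 568 miRNAs did.

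Ratios beyond 0.5 in either direction on any array were seen in 6 stars, all above the mismatch spots on all 5 arrays in both columns: miR-22*, miR-34c*, miR-138*, miR-376c*, miR-382* and miR-411*. MiR-382*, of the imprinted region, was at −0.35, 0.36, 0.62, −0.07 and −0.65, highest on replicate 3 and lowest on replicate 5, and averaged −0.02 ± 0.51. MiR-376c* was at 0.55, 0.51, −0.26, 0.22 and 0.23, negative on replicate 3 alone, with a mean of 0.25 ± 0.32 (limma adjusted p = 0.338). Its signal ranged widely, with 1448, 2007, 271, 220 and 423.5 in Test and 1321, 1681, 786, 530 and 1045 in Cntrl. Of these 6 stars miR-34c*, miR-382* and miR-411* spanned more than 1 log2 unit between their lowest and highest array.

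MiR-34c*, from a hairpin known in ciliated cells and as a target of p53, varied most. Its signal was 653, 1012, 793, 526 and 594 in Test and 1614, 1891, 1966, 1213 and 933 in Cntrl. The ratios were −0.88, −0.63, −0.53, −0.51 and 0.91, negative on 4 arrays and positive on replicate 5 alone. The guide miR-34c was at −0.35, −0.01, 0.37, −0.07 and 0.08, and star minus guide was −0.33 ± 0.67 (limma adjusted p = 0.435). On replicate 5 miR-34b-3p, from the same cluster, was at 0.97 and the choroid plexus miRNA miR-204 at 1.15, against −0.20 to 0.29 and −0.11 to 0.21 on the other arrays. MiR-211, also of choroid plexus but not above the mismatch spots, was at 0.26 there, against −0.02 to 0.22 on the other arrays. MiR-34b-5p, of the same cluster as miR-34b-3p and also not above them, was at 0.04, against −0.04 to 0.17 on the other arrays. Their part in the result was not tested. Without replicate 5 the mean ratio of miR-34c* was −0.63 (adjusted p = 0.077), and its difference from the guide passed, at −0.62 (limma adjusted p = 0.024). With the sign of replicate 3 turned the difference was 0.03.

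**Figure D4:**
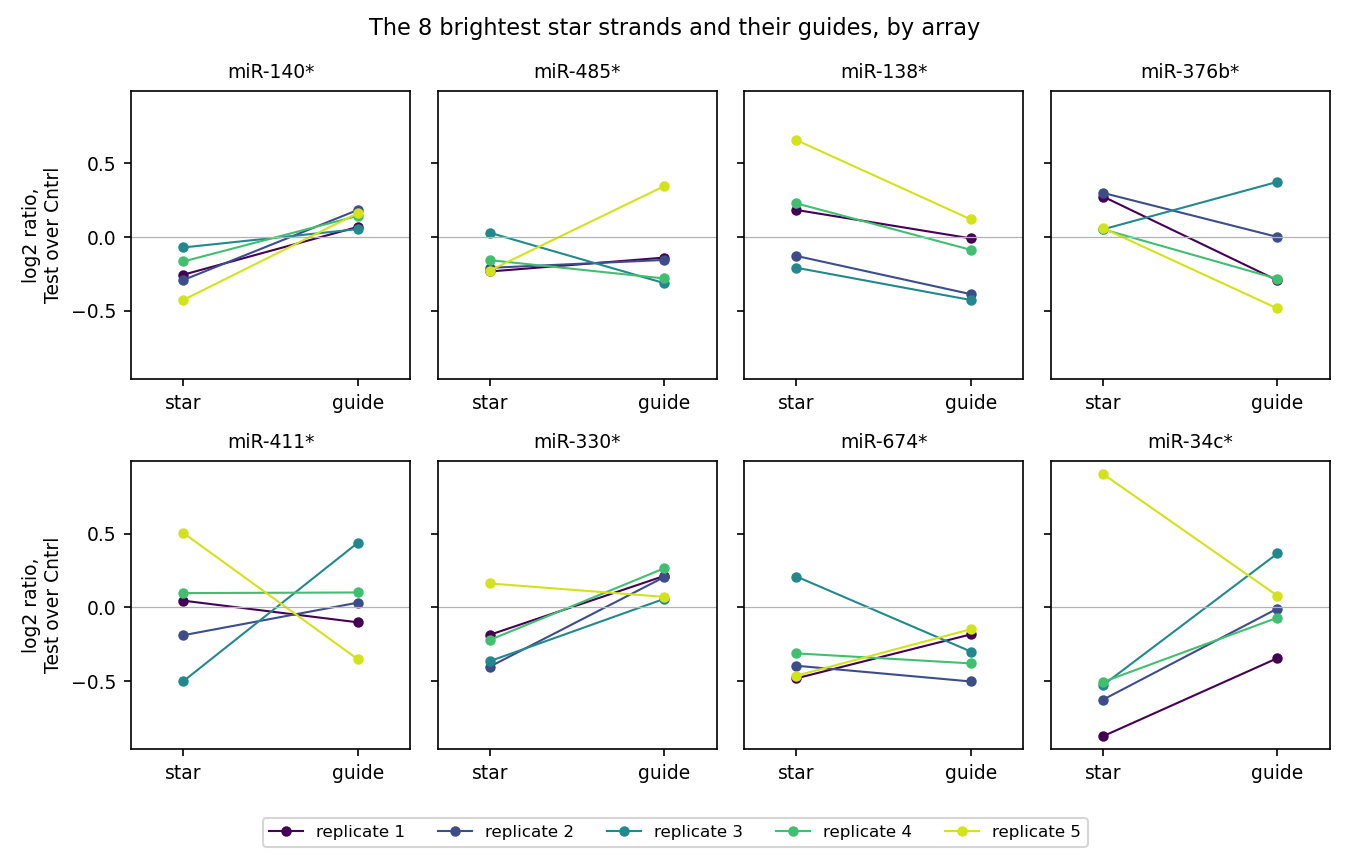
Log2 ratio (Test over Cntrl) of the 8 brightest star strands (left in each panel) and their guides (right), 1 line per array. Lines cross in miR-411*, where replicates 3 and 5 swap order between the strands, and replicate 5 of miR-34c* stands at 0.91 against −0.88 to −0.51 on the other arrays.

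Grouping the stars by hairpin family or by the cells their guides are known from gave no list with a called member on Test over Cntrl. The 13 stars of the imprinted Dlk1-Dio3 region, whose many brain miRNAs are maternally expressed, were the list with most signal. Of these 13 stars, 12 were above the mismatch spots. Their means were positive for 5 and negative for 8, with a median of −0.02, and miR-127*, miR-376b* and miR-485* had an unadjusted p below 0.05 (limma), where 19.4% of all miRNAs did. None of the 13 hairpins passed the test between strands. The list named neuron-enriched also holds miR-378, described above for mitochondrial metabolism. Its 9 stars had 4 positive and 5 negative means, with a median of −0.03. Of their 7 hairpins with a guide row 2 were called, those of miR-138 and miR-378, where 7.69% of all pairs were. These 2 are among the 7 given above and say nothing further about the list. MiR-330* and miR-127* led this list.

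The remaining lists were mostly dim. The 8 stars of miR-17-92, a cluster tied to proliferation, and its paralogs had a median of −0.01 and 3 above the mismatch spots. Among them miR-93* was at 0.04 ± 0.04 beside a guide at −0.26 ± 0.20, and miR-18a* at −0.04 ± 0.11. The 5 stars of the miR-15/16 list had 1 above the mismatch spots and included miR-15a* at 0.11 ± 0.08. Of the 4 immune stars, 2 of whose hairpins were called (miR-22 and miR-146b), 3 means were positive, with a median of 0.07. The share called over all pairs was 7.69%, and both hairpins are among the 7 given above. The 8 vascular stars split into 4 and 4, led by the dim miR-145* at 0.21 ± 0.19 and miR-27a* at 0.14 ± 0.11.

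None of the 5 epithelial and sensory stars exceeded the mismatch spots, although 3 of them, among them miR-200b* (0.08 ± 0.03) and miR-183* (−0.07 ± 0.03), had an unadjusted p below 0.05 in limma, against 19.4% of all miRNAs. The 4 stars of the Sfmbt2 intron, a rodent cluster of near-identical hairpins, had 2 positive and 2 negative means. There miR-467a* was at 0.07 ± 0.16 and miR-467b* at −0.09 ± 0.16, and their targets are close enough to share signal. The 11 stars of other brain-abundant hairpins had a median of 0.00037 and 4 above the mismatch spots, with miR-99b* at 0.08 ± 0.06 and miR-181a-2* at −0.08 ± 0.05. MiR-133a*, from muscle, was at −0.06 ± 0.07 and at background. The median over all 568 miRNAs was 0.0029, and the medians of these lists are descriptions with no test.

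**Figure D5:**
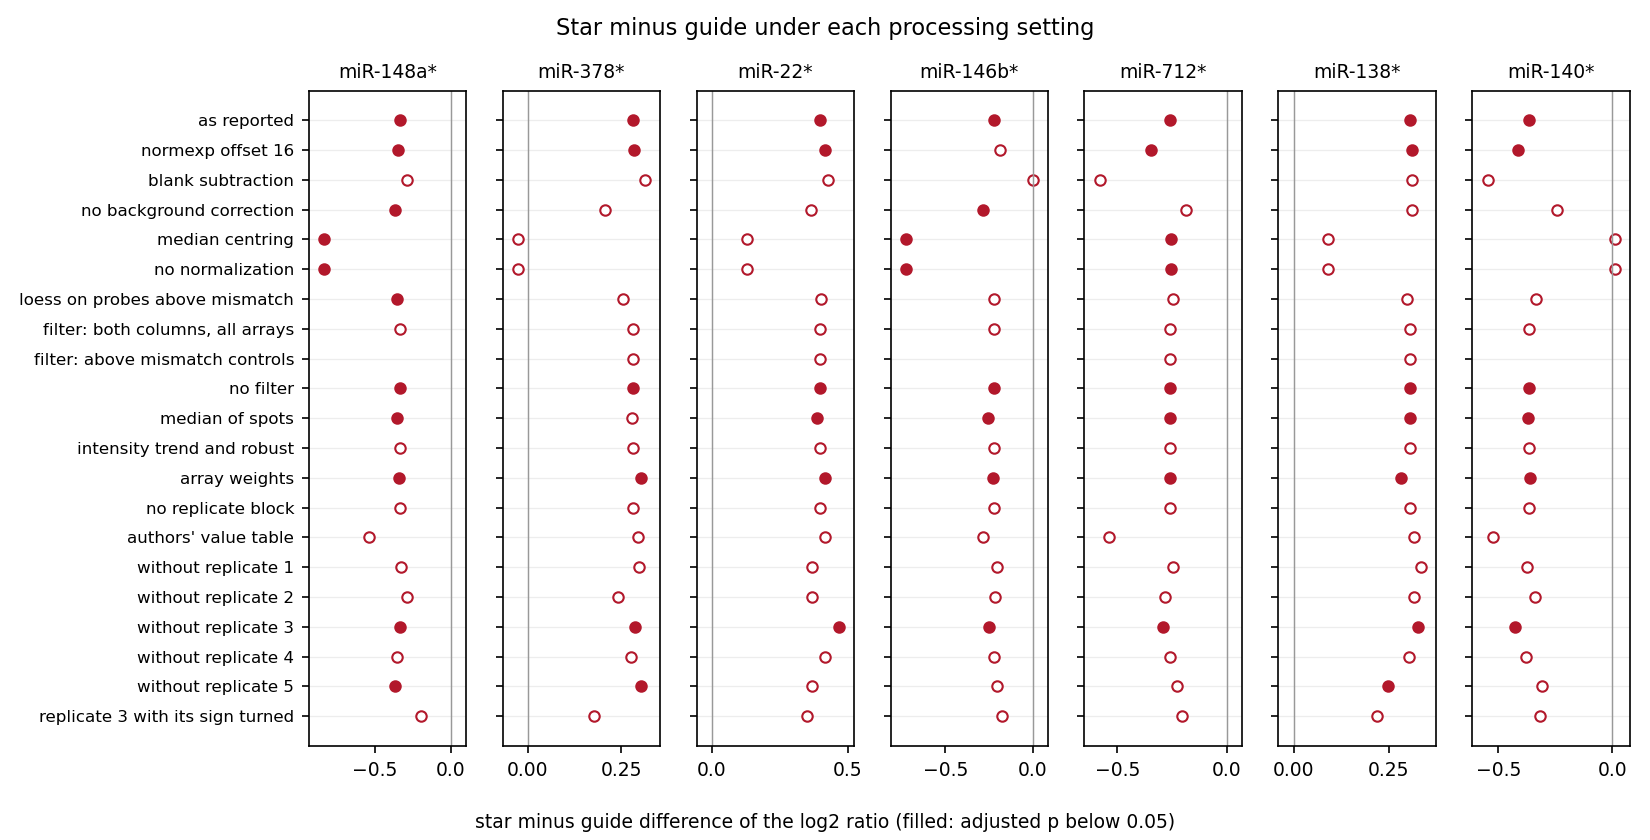
Star minus guide difference of the log2 ratio (horizontal axis) of the 7 hairpins under each processing setting (rows), filled where the adjusted p was below 0.05 and left out where the setting did not test the hairpin. None of the 7 passed the threshold without replicate 1, 2 or 4, and median centring and no normalization brought miR-140* to 0.01 and miR-378* to −0.03.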

How the data were processed

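Per the file headers, the deposited array tables give linear spot intensity as mean foreground, background (0 in every row) and foreground SD for a Test and a Cntrl column. A deposited value table holds log2 values by the authors, with normalization and genotype direction unknown; its columns run the same way as Test over Cntrl (r from 0.77 to 0.93 with the loess ratios), with column medians of −0.05 to −0.02. No source used here names the scanner or its spot filters. Intensities were corrected with normexp (offset 50), loess-normalized within arrays with control spots at weight 0, and averaged over 6 spots on the log2 scale. Ratios of 568 miRNAs, and star minus guide differences of 104 pairs, went into limma 3.58.1 under R 4.3.3 (eBayes, two-sided, Benjamini-Hochberg at 0.05). The smallest two-sided p of an exact sign-flip test over 5 arrays is 0.0625. The arrays are labelled biological replicates; each ratio pairs the mice of 1 array, so pairing is part of the main fit. Members and lists were chosen with earlier results of these data known. The lists are by hairpin name and hold stars with any -1, -2 or letter ending of the stem.

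Named stars are the 10 with the smallest p, the 10 pairs with the largest moderated statistic, the 8 brightest, and the top 2 of each list; miR-150*, miR-376c*, miR-299*, miR-136*, miR-135a*, miR-382*, the stars without a guide row and the hairpins given only as strands that did not overlap, shared a seed or had more loci were named after their values were seen. Alternatives covered background, normalization, dim-probe filters, spot summary, variance model, array weights, pairing, the authors' values, the threshold and each array; replicate 3 with its sign turned was added after seeing the data. The sequences and loci come from RefSeq (GRCm38.p6), by exact match of the array targets. Figures were drawn with matplotlib 3.10.9.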

Additional observations from a re-analysis of the deposited data

Results flagged for a closer look

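The named stars gave 67 values, 34 ratios and 33 star minus guide differences. By Dixon's test 3 of them (4.48%) held an array far from the other 4. Chance gives about 1 in 20 for independent values. These values share the 5 arrays, some stars were named for a small p, and miR-34c* on replicate 5 enters both a ratio and a difference. The share is thus a description and not a test against chance. The ratio of miR-34c* was 0.91 on replicate 5, with the others between −0.88 and −0.51. Its star minus guide difference was 0.83 on replicate 5, against −0.89 to −0.44 elsewhere. The ratio of miR-674* was 0.21 on replicate 3, with the others between −0.48 and −0.31.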

How the results depend on the processing

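The count of stars past the threshold (0) became 30 with median centring, beside 248 of 568 miRNAs (median of all miRNAs −0.04). With no normalization it became 95, beside 442 of 568 (median of all miRNAs −0.77). With array weights it was 2 (miR-140* and miR-712*), beside 21 of 568. At a threshold of 0.10 it was 1 (miR-712*), beside 9 of 568. It was 0 to 1 when single arrays were left out (1, miR-674*, without replicate 3, beside 5 of 568). It was 0 with the other settings. The count of hairpins that differed between strands (7) became 0 with blank subtraction, both stricter filters (0 of 59 and 0 of 32), the trended robust variance model, no replicate block, the authors' value table and replicate 3 turned. It became 2 with no background correction (miR-146b and miR-148a), 1 with loess on probes above the mismatch spots (miR-148a), 22 with median centring or no normalization (3 of the 7 shared), 23 with array weights (all 7), 11 at a threshold of 0.10, and 0 to 21 when single arrays were left out (0 without replicate 1, 2 or 4, 6 with 3 shared without replicate 5, 21 with all 7 without replicate 3). Offset 16, no filter and the median of spots gave 8, 7 and 6, of which 6, 7 and 6 were shared. Without the replicate block the smallest adjusted p in limma was 0.70. The median star ratio was 0.040 with blank subtraction, −0.089 with median centring, −0.82 with no normalization, −0.026 with loess on probes above the mismatch spots, −0.016 with the mismatch filter and −0.011 in the authors' table. The median star minus guide difference was 0.061 with blank subtraction and −0.089 with either change of normalization. Of the named stars' 34 ratios and 33 star minus guide differences, 11 and 11 changed sign with median centring and 15 and 11 with no normalization. The ratios that turned with median centring were those of miR-130b* (−0.14) and miR-411* (0.50), which passed the threshold there, and of miR-140* (0.014), miR-146b* (−0.059), miR-485*, miR-200b*, miR-330*, miR-674*, miR-93*, miR-467a* and miR-99b*, which did not. The star minus guide differences of miR-140* (0.011), miR-378* (−0.03), miR-145* (−0.34), miR-15a* (−0.65), miR-27a* (−0.65) and miR-99b* (−0.62) turned with median centring and equally with no normalization, as did 5 differences past the threshold in neither fit. Elsewhere at most 3 ratios (the authors' table) changed sign, and 7 differences did with replicate 3 turned, 5 without replicate 3, 5 without replicate 5, 4 without replicate 2, 4 with array weights, and at most 2 in any other setting. None of these was a difference of the 7 called hairpins. With no normalization the ratios of miR-483* (−0.66), miR-193* (−0.72), miR-200b* (−0.76), miR-146b* (−0.78), miR-877* (−0.72), miR-130b* (−0.87), miR-145* (−0.66), miR-93* (−0.77), miR-15a* (−0.72), miR-27a* (−0.71), miR-467a* (−0.73) and miR-99b* (−0.74) were also negative and past the threshold, beside that shift of all miRNAs. The cause was not tested. Signal over background limits 57 of the 100 stars, and 5 arrays limit the precision of the rest.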
